A study of Glycine max with 12 samples.

Results

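Leaves of soybean (Glycine max) under heat stress were set directly against leaves under water deficit, to see which genes tell the 2 single stresses apart. Of 55051 genes listed, 33207 had a mean normalized count of at least 10 over the 6 libraries compared, and these were tested; 11427 genes had no read in any library of the study. All plants were wild type, cultivar Magellan (PI595362), raised in growth chambers, where control plants were watered 3 times a week. Heat stress and water deficit had 3 leaf libraries each, and 3 libraries of combined stress (both stresses at once) and 3 of untreated control entered the same fit and are given beside the results as a description. The labels do not give the temperature, the severity or length of the stresses or the hour of harvest. They do not say whether libraries came from separate plants, so p-values measure the spread between these libraries.

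Heat unfolds proteins. Plant cells answer through heat shock transcription factors, which switch on small heat shock proteins, HSP70 and co-chaperones of the BAG family. Drying lowers cell water and raises the hormone abscisic acid, which switches on dehydrins and other late embryogenesis abundant (LEA) proteins, sugar and inositol metabolism and transporters. In legume leaves both stresses also touch nitrogen storage in asparagine and ureides, and the handling of iron and copper.

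The heat stress libraries held 26077068, 34113639 and 40818853 reads, and the water deficit libraries 38219829, 38739228 and 36497023. Library numbers are names and pair nothing. The leaf markers (9 genes of photosynthesis) were all detected and summed to 359901 to 987718 normalized counts in heat stress and 445664 to 779829 in water deficit libraries, while 8 of 12 nodule genes and 13 of 17 seed genes were at 0 in both groups. Heat stress library 3 stood apart. On the second principal component of the 6 libraries (25.1% of the variance) it scored -144, against 16.1 to 46.5 for the others, and the clock gene LCL3 had 204.3, 153.3 and 2013 normalized counts in the heat stress libraries, against 787.5, 669.1 and 501.6 in water deficit libraries. GMLUXB, another clock gene, was lowest in that library, with 122.3, 115.2 and 9.8 over the heat stress libraries and 317.3, 260.9 and 250.8 in water deficit libraries. The part of daily time in the results below was not tested. Several counts and genes are given with and without heat stress library 3. Where no such value is given, a result may still rest on that library.

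Heat stress and water deficit differed in 5419 genes at an adjusted p under 0.05 (limma, two-sided, Benjamini-Hochberg over all genes tested), or 16.3% of the genes tested. In heat stress 2709 (8.16%) of the genes tested were higher and 2710 (8.16%) lower. Before adjustment, 10840 genes (32.6%) had a p under 0.05. The balance shifted with the size of the change. At 2-fold or more, 1652 genes were higher and 1983 lower, and at 8-fold or more, 147 were higher and 414 lower. The heat stress and water deficit libraries did not overlap for 5309 of the 5419 genes (16.0% of those tested), and for 35.2% of all genes tested. In bulk leaf RNA, fewer cells of a type and less RNA per cell cannot be told apart. The count was 2416, 3252 and 8343 without heat stress library 1, 2 or 3 and 3280, 3565 and 2783 without water deficit library 1, 2 or 3. Without heat stress library 3, 4173 genes were higher and 4170 lower (12.6% each), and 4850 of the 5419 calls (89.5%) were kept. In all, 1952 genes (988 higher and 964 lower) were called in each of the 12 fits that leave out 1 library, and a call of this kind is described below as kept throughout.

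**Figure D1:**
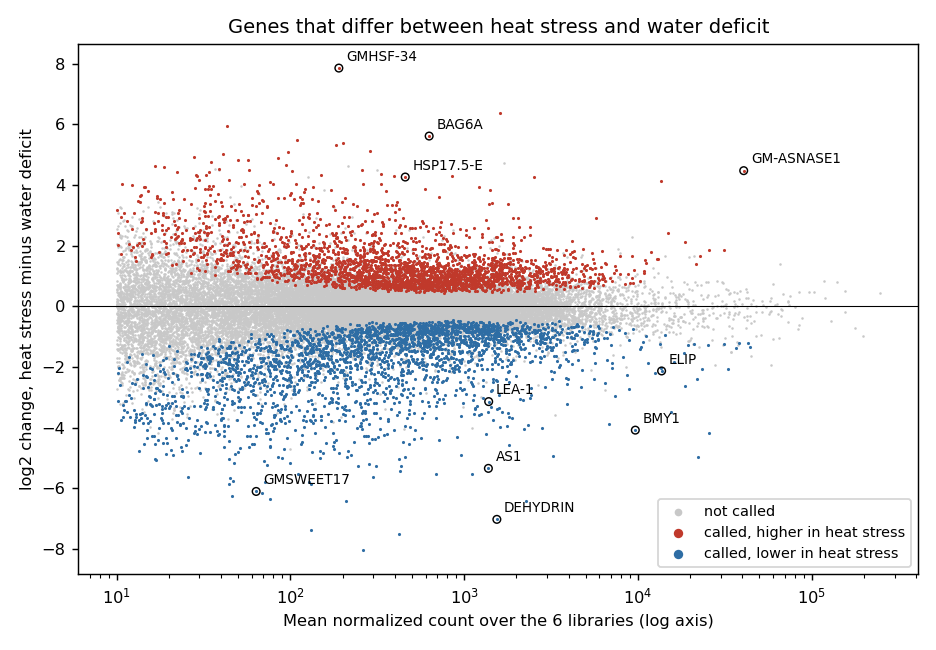
Each point is 1 of the 33207 genes tested. The horizontal log axis is the mean normalized count over the 3 heat stress and 3 water deficit libraries, and the vertical axis is the log2 change, heat stress minus water deficit; red and blue points are the 2709 genes called higher and the 2710 called lower in heat stress, and 10 genes described in the text are labelled. The largest changes lie on the lower side, where 414 genes are 8-fold or more lower, against 147 that are 8-fold or more higher.

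**Figure D2:**
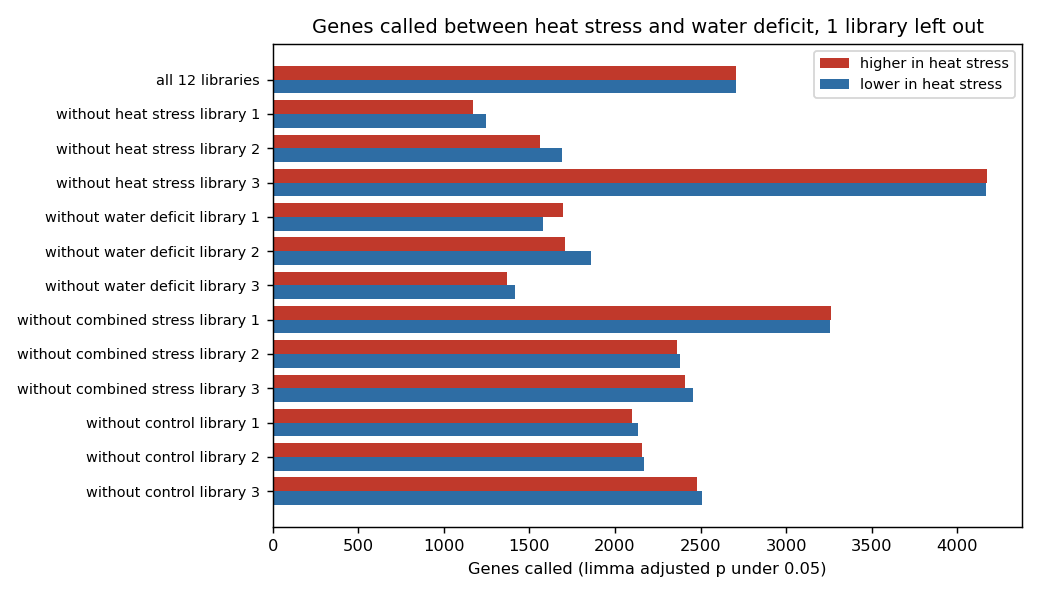
Bars give the number of genes called higher (red) and lower (blue) in heat stress with all 12 libraries and with each library left out in turn. Heat stress library 3 is the library whose removal gives the most calls (8343), and heat stress library 1 the one whose removal gives the fewest (2416).

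Of 35 heat shock factors tested, 6 were higher and 3 lower in heat stress, where 8.16% of all genes tested were called in each direction. The median log2 change was 0.17, against -0.03 over all genes tested. When heat stress library 3 was left out, 8 were higher and 2 lower (median 0.47). GMHSF-34 had 283.7, 579.9 and 275.9 normalized counts in heat stress libraries and 0.93, 0.92 and 0 in water deficit libraries. Every heat stress library was far above every water deficit library, where at most 1 read was found. The mean in heat stress was at least 139-fold higher, counted against 3 reads per library (log2 change 7.85, SE 0.51, limma adjusted p 8.28e-05), and this was the largest fitted increase of all genes tested. Control libraries held 6.2 to 26.1 and combined stress libraries 477.9 to 715.3. GMHSF-20 had 1847, 1402 and 1360 in heat stress and 488.9, 512.6 and 420.1 in water deficit libraries (log2 change 1.69, SE 0.32, adjusted p 0.00625). GMHSF-21 had 167.7, 416.4 and 282.2 against 31.7, 31.1 and 67.4 (log2 change 2.71, adjusted p 0.00315). For both, the groups did not overlap. Combined stress differed in where it lay, with 79.2 to 180.1 for GMHSF-21 and 296.2 to 788.8 for GMHSF-20. GMHSF-04 was also higher (log2 change 0.97), and these 4 calls were kept throughout. GMHSF-30, at 283.7, 455.4 and 56.3 in heat stress and 13.1, 7.3 and 47 in water deficit libraries, was called (log2 change 3.46, adjusted p 0.0194) but not without heat stress library 1 (adjusted p 0.0756) or 2 (0.0711) or water deficit library 1 (0.0598) or 2 (0.0665). The 3 factors that were lower, GMHSF-23 (log2 change -2.38), GMHSF-14 (-1.36) and GMHSF-10 (-0.75), each lost the call without at least 3 libraries, water deficit libraries 1 and 3 among them in all cases (adjusted p 0.0507 to 0.122 without those).

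Small heat shock proteins hold unfolding proteins in solution. All 8 tested had a positive log2 change (median 2.98) and 5 were called higher in heat stress, none lower. Over all genes tested, 8.16% were called in each direction. HSP17.5-E had 834.8, 1222 and 565.3 normalized counts in heat stress and 42, 35.7 and 51.4 in water deficit libraries (log2 change 4.26, SE 0.29, adjusted p 8.28e-05). Every heat stress library was above every water deficit library. HSP17.3-B had 132.4, 392.2 and 67 in heat stress and 10.3, 5.5 and 3.5 in water deficit libraries (log2 change 4.46, SE 0.62, adjusted p 0.00164). HSP17.5-M had 32.8, 63.2 and 76.8 against 1.9, 0.92 and 4.4 (log2 change 4.16, SE 0.68, adjusted p 0.00347). Neither overlapped between the groups, and these 3 calls were kept throughout. The calls of HSP22.5 (log2 change 3.67) and HSP18.5-C (2.29) were lost without heat stress library 1 or 2 or water deficit library 1 or 2, with adjusted p up to 0.0796. HSP22.0 and HSP22.3 were not called with all libraries (log2 changes 2.10 and 1.96, adjusted p 0.116 and 0.156) and were called without heat stress library 3 (3.29 and 2.94, adjusted p 0.00358 and 0.0251), so that 7 of the 8 were then called. In that library HSP22.0 had 8 and HSP22.3 had 54.5 normalized counts, against at least 78.2 and 314 in the other heat stress libraries.

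Larger chaperones were mostly not called. Of 14 tested, 3 were higher, 1 lower and 10 not called (median log2 change -0.20), where 8.16% of all genes tested were called in each direction. When heat stress library 3 was left out, 3 were higher and 1 lower (median 0.03). BAG6A, a co-chaperone of the BAG family, had 602.8, 1151 and 1948 in heat stress and 21.5, 11 and 42.5 in water deficit libraries, with no overlap (log2 change 5.61, SE 0.56, adjusted p 0.000621). HSP70, which refolds proteins, had 395.9, 839.2 and 1082 against 198.7, 130.9 and 177.3 (log2 change 2.09, SE 0.33, adjusted p 0.0031). In both genes heat stress library 3 was the highest of the 3, unlike in HSP22.0 and HSP22.3. The protein disulfide isomerase PDIS-2 was the member that was lower, with 46.7, 39 and 50 in heat stress and 141.8, 173.9 and 119.6 in water deficit libraries (log2 change -1.65, adjusted p 0.00454). These 3 calls were kept throughout, and that of GMHSP40.1 (log2 change 0.81) was not, being lost in 6 of the 12 fits, those without heat stress library 2 or 3, any water deficit library or control library 1 (adjusted p up to 0.0896). HSP90-1 and HSP90-2 were not called, with log2 changes of -0.38 and -0.55 (adjusted p 0.574 and 0.475). Their highest values were in water deficit library 3 (15178 and 16491), and the other 5 libraries ran from 4758 to 10155 and from 3726 to 8219.

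**Figure D3:**
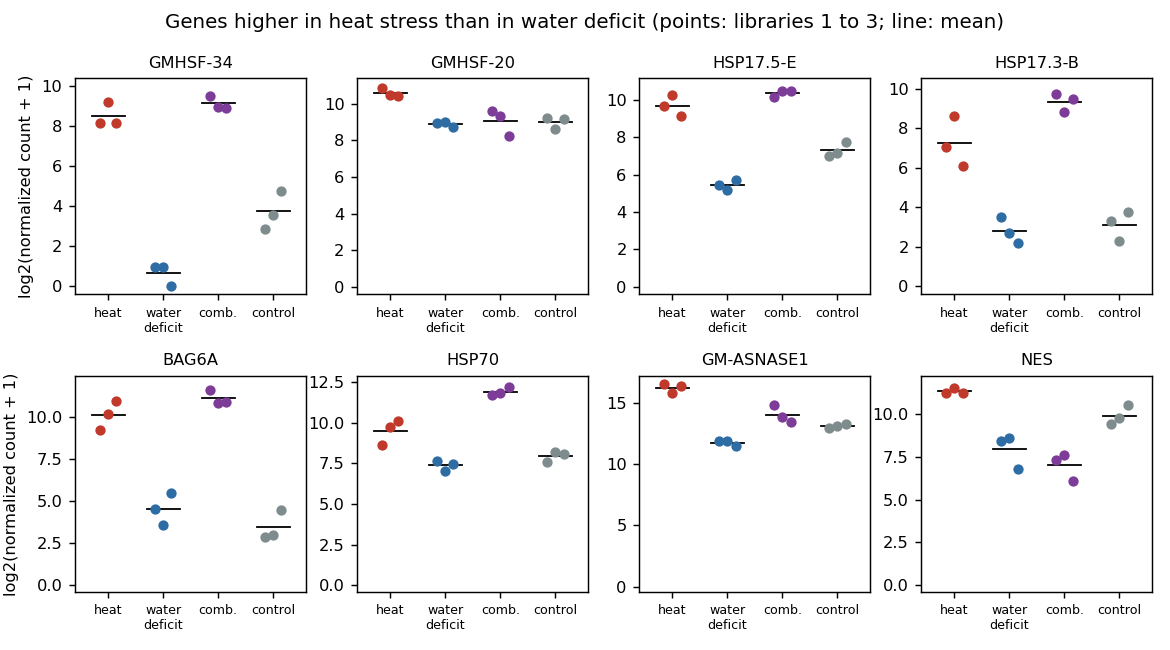
Log2(normalized count + 1) of 8 genes that were higher in heat stress than in water deficit; each point is a library and the line is the mean of 3, with combined stress (comb.) and control beside them. In every panel the 3 heat stress points lie above the 3 water deficit points, and in GMHSF-34 the water deficit libraries hold at most 1 read.

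LEA, dehydrin and seed maturation proteins, which protect drying cells, lay on the other side. Of 27 in the table, 13 passed the minimum mean, and of these 6 were lower and none was higher in heat stress (median log2 change -3.42). Over all genes tested, 8.16% were called in each direction. The minimum mean is taken over the same 6 libraries, so a member low in heat stress can pass it through its water deficit values alone. The count and the median are therefore not independent of that filter. When heat stress library 3 was left out, 8 were lower and none higher (median -3.54). DEHYDRIN had 1.3, 13.9 and 17 normalized counts in heat stress and 1220.5, 137.3 and 7872 in water deficit libraries (log2 change -7.02, SE 1.26, adjusted p 0.00514). The water deficit libraries spread widely, but the lowest of them was above every heat stress library. Combined stress libraries reached 3982 to 28753, and control libraries held 7.6 to 26.1. MAT1 had 15.1, 26 and 14.3 in heat stress and 542.1, 246.2 and 549.5 in water deficit libraries (log2 change -4.48, SE 0.71, adjusted p 0.00304). LEA-1 had 248.4, 345.7 and 202.7 against 1719, 1743 and 4052 (log2 change -3.14, SE 0.44, adjusted p 0.00179). Control held 5.2 to 21.1 for MAT1, at the level of heat stress, and 556.8 to 607.7 for LEA-1, between both stresses. These 3 calls were kept throughout. The other 3 (PM35, PM29 and PM30) each lost the call without water deficit library 1 (adjusted p 0.0769 to 0.0944) or 3 (0.115 to 0.167), the library in which all 3 were highest, and without heat stress library 2 (0.0912 to 0.126). PM35 lost it also without heat stress library 1, PM29 without control library 1, and PM30 in 10 of the 12 fits. Only PM23 had a positive change (0.99, adjusted p 0.0578).

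Of 10 genes of osmolyte and sugar metabolism, 4 were lower in heat stress and none higher (median log2 change -1.27). The share of all genes tested was 8.16% in each direction. BMY1, a beta-amylase, which breaks down starch, had 915.5, 1369.9 and 755.5 in heat stress and 20765, 25443 and 8767 in water deficit libraries, without overlap (log2 change -4.08, SE 0.54, adjusted p 0.00139). Control libraries, at 3218 to 4423, lay between the stresses. This call was kept throughout, and those of the inositol phosphate synthases MIPS and MIPS4 and of STS were not. MIPS4 had 3408, 5301 and 1049 in heat stress and 56632, 39787 and 48503 in water deficit libraries (log2 change -4.16, SE 1.26, adjusted p 0.0433). The groups were far apart, yet the call was kept only without combined stress library 1 or 3, and the adjusted p ran up to 0.107 in the other 10 fits; MIPS4 spread from 160.1 to 19994 in the combined stress libraries, which share in the estimate of error. MIPS (log2 change -1.08) and STS (-1.46) lost the call without heat stress library 1 (adjusted p 0.0744 and 0.101) or 2 (0.0716 and 0.0814) or water deficit library 3 (0.0878 and 0.107), and STS also without water deficit library 1 (0.0639). Among 6 abscisic acid genes, NCED2, of the dioxygenase family that makes the hormone's precursor, was higher in heat stress, with 30.3, 66.9 and 25 against 5.6, 6.4 and 0.89 (log2 change 3.08, SE 0.64, adjusted p 0.00951). GMCYP707A1A, of the family that breaks the hormone down, was lower, with 13.9, 22.3 and 14.3 against 85.8, 54.9 and 205.6 (log2 change -2.52, SE 0.44, adjusted p 0.00468). The groups overlapped in neither, and both calls were kept throughout. For GMCYP707A1A control libraries held 13.6 to 18.5, at the level of heat stress. For NCED2 they held 13.2 to 29, above every water deficit library and reaching into the heat stress range.

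**Figure D4:**
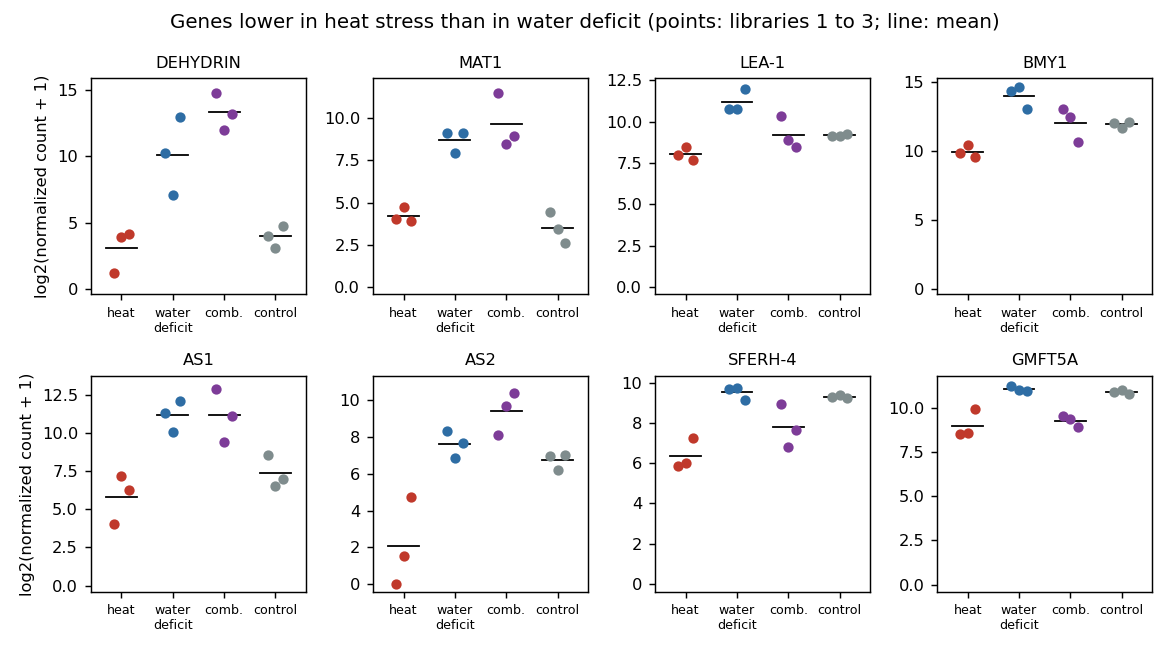
Log2(normalized count + 1) of 8 genes that were lower in heat stress than in water deficit; each point is a library and the line is the mean of 3, with combined stress (comb.) and control beside them. In every panel the 3 heat stress points lie below the 3 water deficit points, while control lies near heat stress for DEHYDRIN and MAT1 and near water deficit for SFERH-4 and GMFT5A.

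Transporters of water, sugar and malate changed in both directions. Of 5 aquaporins tested, 2 were higher and 1 lower (median log2 change 1.27). This count and that of the sugar transporters below stand beside 8.16% of all genes tested called in each direction. PIP1 had 20.2, 31.6 and 10.7 in heat stress and 197.8, 290.2 and 349.2 in water deficit libraries (log2 change -3.76, SE 0.71, adjusted p 0.00633), with no overlap and a call kept throughout. The calls of PIP2 (log2 change 1.50, adjusted p 0.046) and of SPCP1, a tonoplast aquaporin by its RefSeq synonym (1.27, adjusted p 0.0308), were not kept. PIP2 lost its call in all fits except those without combined stress library 1 or 3, and SPCP1 without heat stress library 1 (adjusted p 0.1) or 2 (0.0707) or water deficit library 1 (0.0541) or 3 (0.0886). GMNIP2-2 had 1559.8, 1424 and 108.9 in heat stress and 130.6, 177.6 and 86 in water deficit libraries. It was not called with all libraries (log2 change 2.30, adjusted p 0.122) and was called without heat stress library 3 (3.55, adjusted p 0.00682). Among 19 of 44 SWEET sugar transporters that passed the minimum mean, 3 were higher and 3 lower (median log2 change -0.96). A member near 0 in 1 group passes that filter through the other group, so the median is not independent of it. Without heat stress library 3, 2 were higher and 8 lower, and no higher SWEET call was kept throughout. GMSWEET17 had 3.8, 0 and 0 in heat stress and 191.3, 121.7 and 64.7 in water deficit libraries, at least 40.8-fold lower in heat stress (log2 change -6.10, SE 0.89, adjusted p 0.00205). GMSWEET40 had 5, 2.8 and 22.3 against 146.5, 216 and 82.4 (log2 change -4.10, SE 0.62, adjusted p 0.00251). Neither overlapped and both calls were kept throughout; combined stress lay with water deficit for GMSWEET17 (101.6 to 180.1) and control with heat stress (0 to 11.4). The other 4 SWEET calls were each lost in 4 to 9 of the 12 fits, among them the fits without water deficit library 1 or 3 for all 4. GMALMT8, by its symbol an aluminium-activated malate transporter, had 388.4, 519.5 and 234 in heat stress and 36.4, 42.1 and 16.8 in water deficit libraries (log2 change 3.56, SE 0.40, adjusted p 0.000838), again without overlap and kept throughout.

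Genes that make asparagine and a gene that breaks it down differed in opposite directions. Among 13 genes of nitrogen assimilation and asparagine metabolism, a list formed after the table had been opened, 2 were higher and 6 lower in heat stress (median log2 change -0.75), and all 8 calls were kept throughout. The share of all genes tested that was called was 8.16% in each direction. The asparaginase GM-ASNASE1, which releases ammonium from asparagine, had 92927, 55788 and 84845 normalized counts in heat stress and 3828, 3681 and 2857 in water deficit libraries. All 3 heat stress libraries were above every other library of the study, with 11136 to 27961 in combined stress and 7774 to 9592 in control. The log2 change was 4.47 (SE 0.34, adjusted p 8.53e-05). The asparagine synthetases were lower. AS1 had 15.1, 145.9 and 77.7 in heat stress and 2605, 1099 and 4335 in water deficit libraries (log2 change -5.34, SE 0.95, adjusted p 0.00493). AS2 had 0, 1.9 and 25.9 against 321.9, 115.3 and 202.1 (log2 change -5.53, SE 0.97, adjusted p 0.0047). Neither overlapped; control libraries held 92.2 to 385.9 for AS1 and 71.6 to 126.6 for AS2.

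Cytosolic glutamine synthetases, which fix ammonium, were lower as well. GS1GAMMA2 had 0, 0 and 8.9 in heat stress and 85.8, 32 and 156.9 in water deficit libraries (log2 change -5.16, SE 0.84, adjusted p 0.0034). GS1beta2 had 841.1, 668.2 and 1169 against 2139.6, 1974 and 4054 (log2 change -1.57, SE 0.34, adjusted p 0.0107), and GS1alpha had 369.5, 329 and 821.5 against 1326, 961.1 and 1893 (log2 change -1.53, adjusted p 0.0106). In all 3 the groups did not overlap, and heat stress library 3 was the closest to water deficit. ALAAT1, an alanine aminotransferase, was lower (log2 change -0.95, adjusted p 0.00566), and NIR, the nitrite reductase, was higher, with 1809.5, 1463 and 1076 in heat stress and 567.3, 805.5 and 610.7 in water deficit libraries (log2 change 1.12, SE 0.23, adjusted p 0.00905). In the ureide pathway, by which nodulated soybean stores and ships nitrogen, 3 of 10 genes were higher and 3 lower, where edgeR on the recovered reads called 3 higher and 0 lower. Over all genes tested, limma called 8.16% in each direction. The allantoate amidohydrolase AAH2, which releases ammonium from ureides, had 5839.6, 5354 and 6803 in heat stress and 3093, 3185 and 3363 in water deficit libraries, without overlap (log2 change 0.89, SE 0.17, adjusted p 0.00692). It was the ureide call kept throughout. IMPDH1 lost the call without heat stress library 1 (adjusted p 0.0688) or water deficit library 1 (0.0576), and the other 4 (AAH, UR9, PUR1 and HIUHase) lost it in 7 to 9 of the 12 fits, all of them without heat stress library 1 or any of the 3 water deficit libraries.

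Ferritins store iron in plastids. Of 5 tested, 4 were lower (median log2 change -3.15), and the fifth, SFERH-3, had a log2 change of -0.09 (adjusted p 0.777). The share of all genes tested that was called lower was 8.16%. When heat stress library 3 was left out, 4 were again lower (median -4.04). SFERH-4 had 56.7, 64.1 and 151.8 in heat stress and 833.3, 851.3 and 559.3 in water deficit libraries (log2 change -3.15, SE 0.48, adjusted p 0.00261). H-1, a ferritin by its RefSeq synonym, had 85.7, 16.7 and 150 against 998.4, 1569.8 and 1459.7 (log2 change -4.42, SE 0.68, adjusted p 0.00261). Neither overlapped, and control libraries lay with water deficit, at 610.8 to 659.8 for SFERH-4 and 694.5 to 1824 for H-1. Both calls were kept throughout. Those of FER2-1 (log2 change -2.90) and SFERH-2 (-3.29) were lost without heat stress library 1 (adjusted p 0.0923 and 0.14) or 2 (0.0771 and 0.144) or any water deficit library (up to 0.0644 and 0.122), and SFERH-2 also without control library 1 or 2 or combined stress library 3. edgeR on the recovered reads called neither (adjusted p 0.0908 and 0.0991).

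Copper handling, a list formed after the table had been opened, had 2 of 12 tested genes higher and 5 lower (median log2 change -0.58). Over all genes tested, 8.16% were called in each direction. When heat stress library 3 was left out, 2 were higher and 7 lower (median -1.1). The MIR408 genes encode the precursors of a microRNA that acts on transcripts of copper proteins. MIR408A had 13.9, 35.3 and 97.3 in heat stress and 591.6, 462.2 and 441.4 in water deficit libraries (log2 change -3.72, SE 0.52, adjusted p 0.00178), and MIR408C had 6.3, 14.9 and 17.9 against 128.8, 136.4 and 87.7 (log2 change -3.17, SE 0.45, adjusted p 0.00179). The groups did not overlap. Combined stress lay with heat stress (29.8 to 59.2 for MIR408A) and control with water deficit (451 to 546.3). MIR408D was lower as well (log2 change -0.95), a call lost without heat stress library 1 (adjusted p 0.0812) or water deficit library 1 (0.0768). CCS, the chaperone that loads copper into superoxide dismutase, had 360.6, 378.3 and 306.3 in heat stress and 162.4, 184.9 and 164 in water deficit libraries (log2 change 1.02, SE 0.17, adjusted p 0.0041). SOD1, a superoxide dismutase, had 2373, 2580 and 1639.5 against 886.4, 946.4 and 700.2 (log2 change 1.36, SE 0.23, adjusted p 0.00377). Both were above every water deficit library in every heat stress library, and both calls were kept throughout, as were those of MIR408A and MIR408C. The iron superoxide dismutase SODB (log2 change -1.21) and PAA1 (-0.69) were called lower, but SODB lost the call in 8 and PAA1 in 9 of the 12 fits, both of them without heat stress library 1 or 2 or any water deficit library (adjusted p up to 0.147 and 0.134). SODB, though an iron enzyme, is a member of this list and among its 5 lower genes.

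Of 40 antioxidant enzymes and glutathione S-transferases, SOD1 was the 1 that was higher and 13 were lower (median log2 change -0.86). Over all genes tested, 8.16% were called in each direction. Glutathione S-transferases attach glutathione to damaged or foreign molecules. GSTU41 had 93.3, 88.3 and 142.9 in heat stress and 585.1, 416.5 and 504.3 in water deficit libraries (log2 change -2.22, SE 0.31, adjusted p 0.00174). GSTU47 had 4663, 6479.6 and 5172 against 12498, 11326 and 21219.6 (log2 change -1.42, SE 0.25, adjusted p 0.00513). GSTU58 was lower as well (log2 change -2.63), and for these 3 the groups did not overlap and the calls were kept throughout. The number of lower calls ran from 4 to 17 over the 12 fits, and it was 17 without heat stress library 3 and also without combined stress library 1. Catalase CAT1 (log2 change -0.63) and ascorbate peroxidase APX2 (-0.89), which remove hydrogen peroxide, lost the call without heat stress library 1 (adjusted p 0.106 and 0.0639) or 2 (0.0669 and 0.0611), or water deficit library 2 (0.0892 and 0.0628), CAT1 also without water deficit library 1 or control library 2, and APX2 also without water deficit library 3.

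**Figure D5:**
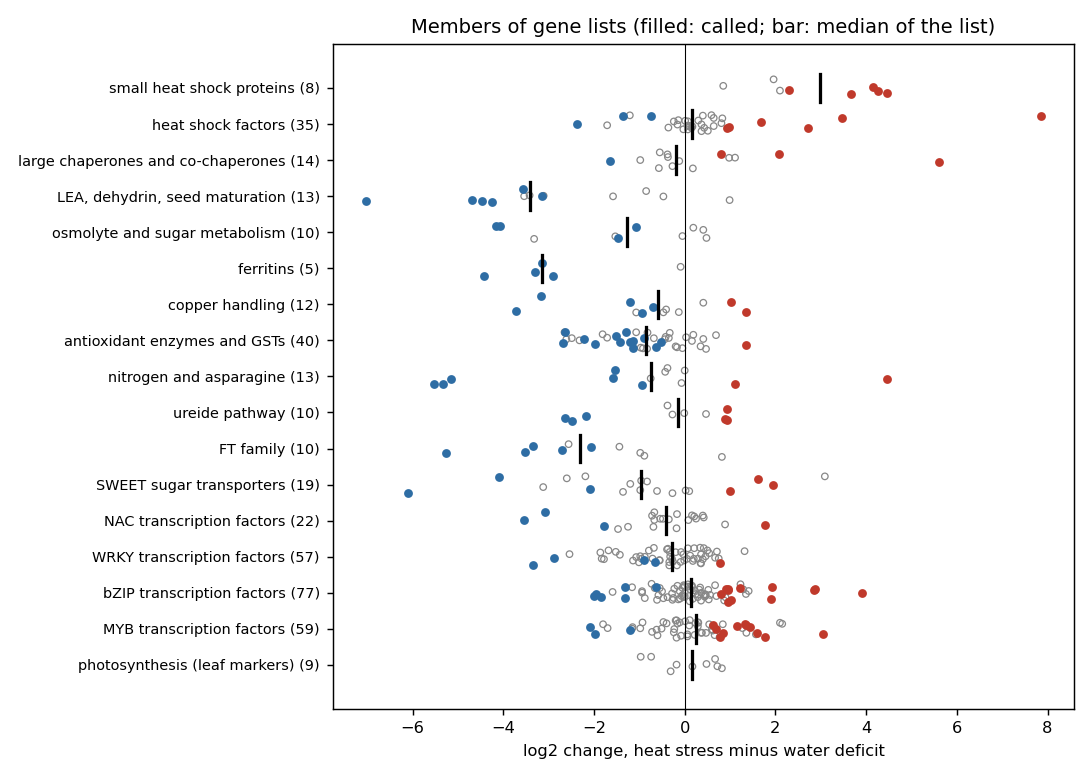
Log2 change, heat stress minus water deficit, of the tested members of 17 gene lists, with the number tested in brackets; filled points were called higher (red) or lower (blue), open points were not called, and the bar is the median of the list. Small heat shock proteins lie to the right of 0 (median 2.98) and LEA proteins, ferritins and the FT family to the left (medians -3.42, -3.15 and -2.31), while photosynthesis genes hold no filled point.

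The counts of the transcription factor families stand beside 8.16% of all genes tested called in each direction, and for several families they were near or below that share. Among 77 bZIP genes, 12 were higher and 6 lower (median log2 change 0.13). BZIP104 had 837.3, 770.5 and 1464 in heat stress and 335.9, 237.1 and 220.7 in water deficit libraries (log2 change 1.91, SE 0.28, adjusted p 0.00228), and BZIP23 had 49.2, 54.8 and 51.8 against 213.7, 224.3 and 176.4 (log2 change -1.95, SE 0.23, adjusted p 0.000903). Of 59 MYB genes, 11 were higher and 3 lower (median 0.24), led in adjusted p by MYB57 with 959.6, 791.8 and 802.8 in heat stress and 317.3, 351.5 and 346.5 in water deficit libraries (log2 change 1.32, SE 0.18, adjusted p 0.00141). The groups did not overlap in these 3 genes. Of 22 NAC genes, 1 was higher and 3 lower (median -0.42). NAC6 had 119.8, 150.6 and 261.6 in heat stress and 1519, 1193 and 4297 in water deficit libraries (log2 change -3.55, SE 0.46, adjusted p 0.00126), and NAC5 was also lower (log2 change -3.09). Of 57 WRKY genes, 1 was higher and 4 lower (median -0.28), among them WRKY60 with 214.4, 329.9 and 131.3 in heat stress and 1299.8, 870.5 and 3293 in water deficit libraries (log2 change -2.88, SE 0.52, adjusted p 0.00522). NAC6 and WRKY60 were highest in water deficit library 3, and every water deficit library was above every heat stress library. All genes named so far in this paragraph kept the call throughout, and other calls of these families did not. Of the higher and lower calls, 7 and 3 were kept throughout for bZIP, 4 and 0 for MYB, 0 and 2 for NAC and 0 and 2 for WRKY genes.

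Over the 12 fits the calls ran from 8 to 19 higher and 3 to 8 lower for bZIP genes, from 4 to 14 and 1 to 5 for MYB genes, and from 0 to 3 and 2 to 8 for WRKY genes. Of 18 DREB and ERF genes, which answer cold, drying and ethylene, 2 were higher and 2 lower, and no call was kept throughout. DREB1-like had 0, 1.9 and 2.7 in heat stress and 34.5, 10.1 and 411.2 in water deficit libraries. The mean was at least 49.3-fold lower in heat stress (log2 change -4.64, SE 1.34, adjusted p 0.0364), and most of it came from water deficit library 3. The call was lost without that library (adjusted p 0.136), without water deficit library 1 (0.0702) and without heat stress library 1 (0.124) or 2 (0.072).

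Among 27 clock and CONSTANS-like genes, a family that reads day length, 3 were higher and none lower (median log2 change 0.07). Of all genes tested, 8.16% were called in each direction. Without heat stress library 3, 4 clock genes were higher and 1 lower, and without combined stress library 1, 4 were higher and 2 lower. COL21 had 19196, 18050.4 and 37582 in heat stress and 5550, 5948 and 2642 in water deficit libraries (log2 change 2.41, SE 0.42, adjusted p 0.00482). COL8 was 2.31-fold (adjusted p 0.00546) and COL10 2.29-fold higher (adjusted p 0.00793). The groups overlapped in none of the 3 and the calls were kept throughout; in COL21, COL8 and COL10 heat stress library 3 was the highest of all 6. LCL3 and GMLUXB, by which that library stands apart, were not called (adjusted p 0.625 and 0.097).

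The leaf's pigment genes differed at a few steps while the photosynthesis genes did not pass. None of 9 photosynthesis genes was called by limma, edgeR or DESeq2, and 0 had an unadjusted limma p under 0.05 (median log2 change 0.17 with all libraries and -0.45 without heat stress library 3). RBCS-1, the small subunit of Rubisco, had 170814, 118991 and 108318 in heat stress and 285851, 318782 and 183227 in water deficit libraries. Its groups did not overlap, with a log2 change of -0.97 (adjusted p 0.303). NYC1_2, a chlorophyll b reductase, which starts chlorophyll breakdown, had 2498, 1927 and 2874 in heat stress and 10069, 8696 and 7791 in water deficit libraries (log2 change -1.87, SE 0.23, adjusted p 0.00115). ELIP, an early light-induced protein, which guards chlorophyll in strong light, had 7425, 4797 and 3593 against 22088, 22288 and 21996 (log2 change -2.13, SE 0.30, adjusted p 0.00189). Combined stress libraries had 24787 to 44688 for ELIP, above all others, and control libraries had 7557 to 10866, closer to heat stress. Neither gene overlapped between the stresses, and both calls were kept throughout. Of 13 genes of carotenoid and tocopherol synthesis, 2 were higher and 5 lower (median -0.31), where 8.16% of all genes tested were called in each direction. When heat stress library 3 was left out, 4 were higher and 5 lower (median -0.76). BCH5, a beta-carotene hydroxylase, had 332.9, 286.2 and 368.8 in heat stress and 101.7, 106.2 and 61.2 in water deficit libraries (log2 change 1.90, SE 0.38, adjusted p 0.0085). The tocopherol enzymes GAMMA-TMT (log2 change -2.01, adjusted p 0.0102) and HPT1 (3.99-fold, adjusted p 0.0103) were lower, and the calls of these 3 were kept throughout.

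With all libraries, flavonoid enzymes were called only in the lower direction. Of 39 tested, 6 were lower and none higher in heat stress (median log2 change -0.54), where 8.16% of all genes tested were called in each direction. Without heat stress library 3, 4 were lower and 1 higher, and the lower calls ran from 3 to 8 over the 12 fits. FNSII-1, a flavone synthase, had 15.1, 19.5 and 20.5 in heat stress and 87.7, 69.6 and 64.7 in water deficit libraries (log2 change -1.95, SE 0.32, adjusted p 0.00343). The flavonol synthase FLS1 had 351.8, 338.3 and 316.1 against 836.1, 884.2 and 538.9 (log2 change -1.13, SE 0.23, adjusted p 0.0092). CHI1A, a chalcone isomerase, was lower as well (log2 change -1.84, adjusted p 0.0113). These 3 did not overlap between the groups and were called throughout. CHS8, 4CL2 and ANS2 lost the call without heat stress library 3 (adjusted p 0.073, 0.0541 and 0.0665) or water deficit library 3 (0.123, 0.102 and 0.0883), each with 2 to 5 other libraries. Among 7 lipoxygenase and vegetative storage protein genes none was called by limma, edgeR or DESeq2, and 0 had an unadjusted limma p under 0.05. VSPA ran from 4382 to 70849.5 in heat stress and from 21068 to 171358 in water deficit libraries, so its groups overlapped widely.

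Several of the largest changes belong to genes that the table lists by number only. LOC100790115 had 0, 0 and 3.6 in heat stress and 375.1, 218.8 and 980.2 in water deficit libraries (log2 change -8.03, SE 0.69, adjusted p 0.0002), the largest decrease of all, with 689.3 to 1648 in combined stress and 4.2 to 13.7 in control. LOC100791989 had 18.9, 39 and 100 against 3890.1, 1572 and 8071 (log2 change -6.41, SE 0.91, adjusted p 0.00183). Neither overlapped. On the other side, LOC100792229 had 249.7, 316 and 80.4 in heat stress and 7.5, 3.7 and 0.89 in water deficit libraries (log2 change 5.47, SE 0.70, adjusted p 0.00125), and control libraries, at 157.7 to 262.5, lay with heat stress. LOC106798673 had 532.1, 516.7 and 127.7 against 4.7, 7.3 and 9.7 (log2 change 5.37, SE 0.51, adjusted p 0.000548). LOC100813586 had 4009.9, 5562 and 58 in heat stress and 9.3, 18.3 and 10.6 in water deficit libraries (log2 change 6.37, SE 1.34, adjusted p 0.00992), with heat stress library 3 close to the 62.6 of control library 1. These 5 calls were kept throughout. NES had 2411, 3015 and 2382 in heat stress and 349, 389.9 and 108.1 in water deficit libraries (log2 change 3.39, SE 0.49, adjusted p 0.00207), with 68 to 198 in combined stress and 691.6 to 1467 in control, and was kept throughout.

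Where control and combined stress lay was read as a description, since those libraries do not enter the difference itself. Of the 2709 genes higher in heat stress, the control mean lay on the heat stress side of the midpoint for 36.2%, and of the 2710 lower genes for 42.3%, against 41.0% and 44.7% of all tested genes that differed in the same direction. The combined stress mean lay on the heat stress side for 64.6% and 61.9%, against 54.0% and 58.3%. These shares rest on heat stress library 3. With the calls and means made without it, combined stress lay on the heat stress side for 42.7% and 40.6%, and control for 24.8% and 26.3%. The shares over all tested genes were not taken without that library, so a shift of the called genes alone cannot be told from one over all genes. For single genes the placing varied, as GMHSF-34, HSP17.3-B and BAG6A had combined stress with heat stress, DEHYDRIN, MAT1 and GMSWEET17 had it with water deficit, and GM-ASNASE1 had it between.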

How the data were processed

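The deposited table holds a signal per gene and library, which its name calls normalized counts. The signal in every column was made of whole multiples of 1 step, the pattern left by dividing gene counts by 1 factor per library, so whole reads were recovered for 100% of values (tolerance 0.01, and 0 columns without a sample). The submitters' processing notes name cutadapt 1.18, FastQC 0.11.7, STAR 2.4.0.1 and DESeq2 1.20.0; the genome build, the counting and its use of strand are not given in the sources used here, so no positions are given, and near-identical copies and overlapping or antisense genes cannot be told apart. Names follow RefSeq (assembly Glycine_max_v4.0, 95.8% of tested identifiers found).

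The test was limma 3.58.1 in R 4.3.3 on log2(normalized count + 1), with a variance trend and 1 fit over the 4 groups and 12 libraries. A fold change is on that scale, which understates low genes. Genes at or under 3 reads in every library of a group were at the floor, which covers counting error only. edgeR 4.0.16 and DESeq2 1.42.0 took the recovered reads in alternative tests. On simulated counts for 33207 genes with 200 changed, limma recovered 12% of 2-fold and 82% of 4-fold changes and 8.74% of its calls were unchanged genes. Far fewer genes were changed there than the 5419 called here, and no simulated library stood apart from its group. These rates therefore need not hold for the calls above.

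Named genes were called, reached a mean of 100 and did not overlap between the groups (the 6 largest changes each way, and the 10 largest each way among symbols), or were the most abundant or most changed members of lists. Further called members of a list, and members with no call, are given by symbol and were chosen after their values were seen. Lists were formed from symbols; those on pigments, jasmonate, nitrogen, ureides, copper, the FT family, NF-Y, YABBY, WNK, calmodulins, cyclophilins, glyoxalases, phosphate, IQ-domain proteins, desaturases, photoreceptors, autophagy, alternative oxidases and dehydration symbols were formed after the table was opened. The members and lists were chosen with earlier results of these data known. A planned search of promoter motifs was not run.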

Additional observations from a re-analysis of the deposited data

How the results depend on the processing

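No gene called in the comparison changed sign in any fit. The count of 5419 calls (2709 higher, 2710 lower) was 12936 (6262 and 6674) with array weights, 2533 (1253 and 1280) with only the 6 libraries compared, and 7936 with DESeq2, of which 4237 were higher. It was 5455 with edgeR (2998 higher, 2457 lower) and 4683 to 5967 under the other scalings, filters, trend and pseudocount. With 1 library left out it ran from 2416 to 8343, with 1170 to 4173 higher and 1246 to 4170 lower. The share of called genes with control on the heat stress side, among those higher, was 33.3% with array weights and 38.7% with 6 libraries (24.8% to 42.0% with 1 library left out). Among those lower it was 35.6% with array weights, 45.5% with edgeR, 46.5% with 6 libraries, 44.8% with a pseudocount of 10 and 44.6% with the same total (26.3% to 57.4%). The share with combined stress on that side, among those higher, was 60.7% with DESeq2, 53.8% with array weights, 62.7% with edgeR and 66.6% with 6 libraries (42.7% to 70.5%). Among those lower it was 51.5% with array weights, 63.7% with edgeR, 64.7% with a pseudocount of 10 and 59.1% with the same total (40.6% to 66.2%). The cause was not tested. Of 76 called named genes, 51 kept the call under all 10 alternatives other than a left-out library (704 of 760 values), and 44 kept it in all 12 fits without 1 library (742 of 912). With 3 libraries against 3, an exact permutation test of a single gene cannot go below 0.1, so calls rest on the spread pooled over genes and groups. No paired analysis was possible because the labels give the groups no shared replicate numbers.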

Other observations

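The FT family, of which some members promote and others delay flowering, had 5 of 10 tested members lower in heat stress and none higher (median log2 change -2.31, against -0.03 over all genes tested). This count and that of the NF-Y factors below stand beside 8.16% of all genes tested called in each direction. Members near 0 in heat stress passed the minimum mean through their water deficit values, so the median is not independent of that filter. GMFT5A had 365.7, 372.7 and 948.3 normalized counts in heat stress and 2412, 2020.1 and 1982 in water deficit libraries. Every heat stress library was below every water deficit library (log2 change -2.07, SE 0.32, limma adjusted p 0.00261), and control libraries lay with water deficit, at 1760.3 to 1998. This was the FT call kept in all 12 fits that leave out 1 library. Without heat stress library 3, 9 of the 10 were lower and 1 higher. GMFT3A, for one, had 0, 0 and 262.5 in heat stress and 47.6, 15.6 and 65.6 in water deficit libraries, with a log2 change of -2.56 (adjusted p 0.303) with that library and -5.24 (adjusted p 0.000388) without it. FT6 had 0, 1.9 and 440.2 in heat stress and 679.3, 182.1 and 569.9 in water deficit libraries, and its call (adjusted p 0.0496) was kept in 1 of the 12 fits, that without heat stress library 3. Of 25 NF-Y factors, 7 were lower and 1 higher (median -0.37), of which GMNF-YC13 kept its call in all 12 fits (log2 change -1.11, adjusted p 0.00795). The number of lower NF-Y calls ran from 1 to 10 over these fits.

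The calmodulin gene SCAM-4, a calcium sensor, had 15.1, 18.6 and 25 in heat stress and 430.2, 305.7 and 1953 in water deficit libraries, without overlap (log2 change -4.98, SE 0.79, adjusted p 0.0031), and SCAM-3 was lower as well (log2 change -1.15, adjusted p 0.00535). GMDCL2A, a Dicer-like gene of the RNA silencing pathway, had 24, 34.4 and 31.3 in heat stress and 422.7, 399.1 and 1155 in water deficit libraries (log2 change -4.25, SE 0.67, adjusted p 0.00291), with 4.1 to 33.1 in combined stress, at the level of heat stress. SGLU5 had 29, 30.7 and 179.5 against 995.6, 638.9 and 1038 (log2 change -3.97, adjusted p 0.00533). SNAC41 had 12.6, 24.2 and 74.1 against 540.3, 481.5 and 373.1 (log2 change -3.96, adjusted p 0.00115). GMPHR5, of the family of phosphate starvation regulators, had 5, 13 and 32.1 in heat stress and 141.8, 119.9 and 160.4 in water deficit libraries (log2 change -3.32, adjusted p 0.00338), and control libraries, at 78.4 to 109.7, were closer to water deficit. In all of these the groups did not overlap and the call was kept in all 12 fits.

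The counts of the other lists stand beside 8.16% of all genes tested called in each direction. Of 54 cyclophilins 3 were higher and 3 lower, of 45 phosphate starvation regulators 3 and 3, of 46 IQ-domain proteins 3 and 2, of 23 fatty acid desaturases 2 and 0, of 26 glyoxalases 0 and 4, of 9 jasmonate genes 0 and 2, of 12 chlorophyll genes 0 and 3, of 12 photoreceptor and light signalling genes 0 and 1, of 12 WNK kinases 0 and 1, of 13 YABBY genes 0 and 1, and of 18 genes named for dehydration or cold 0 and 3. Many of these counts moved when 1 library was left out. Without heat stress library 3, 6 cyclophilins were higher and 8 lower, 6 phosphate starvation regulators were higher and 6 lower, 9 IQ-domain proteins were higher and 5 lower, 5 chlorophyll genes were lower and 1 higher, and 2 WNK kinases were lower. Over the 12 fits the higher and lower calls went down to 1 and 2 for each of the cyclophilins, phosphate starvation regulators and IQ-domain proteins, and the lower calls to 1 for the chlorophyll genes and 2 for the dehydration or cold genes. No desaturase was higher without heat stress library 1 or water deficit library 3, no jasmonate gene was lower without either of these, and no glyoxalase was lower without heat stress library 1 or 2. The YABBY call, GMYABBY12, was kept without combined stress library 1 or heat stress library 3 and lost in the other fits. Without water deficit library 3 it was lost (adjusted p 0.0667), and the 1 YABBY gene then called lower was another. Among 5 autophagy genes and 3 alternative oxidases none was called by limma or edgeR, with 0 and 1 at an unadjusted limma p under 0.05, and DESeq2 called 0 and 1. Of 3 seed genes and 2 pathogenesis-related genes that passed the minimum mean, 1 each was lower, and of 2 nodule genes none was called. The seed gene GMBBI-1 lost its call without water deficit library 3 (adjusted p 0.0502). The pathogenesis-related call, CHIA1, was made by limma alone, as edgeR and DESeq2 called 0, and it was kept in 2 of the 12 fits, those without combined stress library 1 or heat stress library 3.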
